A study of Mus musculus with 6 samples.

Results

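The genes described here encode the oxygen-sensing machinery that acts on the hypoxia-inducible factors (HIF): the prolyl hydroxylases Egln1, Egln2 and Egln3, the asparaginyl hydroxylase Hif1an, the ubiquitin ligase parts Vhl, Cul2 and Rbx1, and the ligases Siah1a and Siah2. They were followed through every probe set whose platform annotation names exactly 1 gene symbol, that symbol being 1 of these 9. This gave 18 probe sets of the 45037 on the array that are not controls, and 9 genes of 18193. A further 5 probe sets name Rbx1 together with another symbol and 1 names Siah1a together with another, and these were not used. RNA came from isolated pancreatic islets, the endocrine clusters that hold the insulin-secreting beta cells, on 6 Affymetrix arrays: 3 control and 3 Vhlh knockout, from mice of 26, 20 and 18 weeks (replicates 1, 2 and 3 of each genotype). The labels describe the model of all 6 samples as a beta cell-specific knockout made with RIP2-Cre and the allele Vhlh(fl/fl). For the controls they give the genotype as control and do not say whether the mice carried Cre or the floxed allele. Cre driven by this promoter is meant to leave the alpha, delta, vascular and stromal cells of an islet with an intact gene, so each knockout array mixes deleted and undeleted cells. Nothing in the labels gives the number of mice behind an islet batch, so p-values reflect the spread from batch to batch.

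In cells with enough oxygen the prolyl hydroxylases mark the alpha subunits of HIF. The marked subunit is bound by the Vhl protein, the substrate receptor of a ligase built on the scaffold Cul2 and the RING protein Rbx1, and is then ubiquitinated and degraded. Hif1an hydroxylates an asparagine of HIF alpha and so blocks its contact with coactivators, and the Siah ligases in turn target prolyl hydroxylases for degradation. Egln1 and Egln3 are themselves known as transcriptional targets of HIF, which makes a feedback loop.

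HIF binds DNA at a short core, searched here as ACGTG and as GCGTG on both strands, and the upstream windows of the hydroxylase genes are shown because all probe sets whose signals did not overlap between genotypes belonged to genes of this enzyme group. Each is the 250 bases before a start site in the RefSeq promoter table (GRCm38.p6), written in the direction of the gene, with motif matches in capitals. The windows are chr12:54203875-54204124 (minus strand) for Egln3, chr8:124949255-124949504 (minus strand) for Egln1, chr7:27166803-27167052 (minus strand) for the more upstream of the pair of Egln2 starts, and chr19:44562604-44562853 (plus strand) for Hif1an.
Egln3: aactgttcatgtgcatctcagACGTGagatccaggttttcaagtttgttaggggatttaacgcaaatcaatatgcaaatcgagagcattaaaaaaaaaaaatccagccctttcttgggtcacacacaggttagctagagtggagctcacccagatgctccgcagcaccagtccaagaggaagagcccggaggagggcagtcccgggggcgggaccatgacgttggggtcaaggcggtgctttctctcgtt
Egln1: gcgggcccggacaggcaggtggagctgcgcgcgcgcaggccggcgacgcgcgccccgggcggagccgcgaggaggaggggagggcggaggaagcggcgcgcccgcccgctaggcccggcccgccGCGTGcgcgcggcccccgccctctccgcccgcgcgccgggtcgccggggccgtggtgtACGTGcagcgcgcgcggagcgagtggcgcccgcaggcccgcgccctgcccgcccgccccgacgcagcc
Egln2: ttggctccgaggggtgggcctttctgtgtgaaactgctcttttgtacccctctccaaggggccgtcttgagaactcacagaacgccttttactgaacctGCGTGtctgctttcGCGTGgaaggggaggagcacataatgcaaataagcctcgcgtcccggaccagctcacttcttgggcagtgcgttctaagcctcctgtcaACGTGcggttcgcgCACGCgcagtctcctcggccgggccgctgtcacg
Hif1an: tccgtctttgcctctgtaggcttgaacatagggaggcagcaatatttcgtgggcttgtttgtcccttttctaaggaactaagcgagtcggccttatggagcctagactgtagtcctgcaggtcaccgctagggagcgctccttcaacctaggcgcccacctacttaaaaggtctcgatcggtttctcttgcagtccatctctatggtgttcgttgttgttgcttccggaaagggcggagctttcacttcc

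Egln3 has 1 ACGTG, 229 bases before its start. Egln1 has an ACGTG at 68 and a GCGTG at 126 bases before its start. Egln2 has an ACGTG at 48 bases and GCGTG at 137 and 151 bases before the start shown, and a GCGTG on the other strand at 34 bases, while its other start has 1 GCGTG at 116 bases. Hif1an has no match in its window. Among the other genes, Vhl has none, while Rbx1 has GCGTG at 89 bases and on the other strand at 62. Siah1a has GCGTG at 138 and 142 bases, and no windows for Cul2 and Siah2 were searched. Among the genes searched, matches were thus found both in genes that separated the genotypes and in genes that did not. Of all 32851 windows of this length in the table, 16.6% hold ACGTG, 28.2% hold GCGTG and 38.6% hold at least 1 of them, and no matches overlap each other in the windows shown, whereas the pair in Siah1a shares a base. These are matches of letters only, and nothing about binding was measured.

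Vhl, the gene targeted in these mice, was lower on average in the knockout islets, by a difference that did not pass the threshold. The signal is the MAS5 intensity of a probe set on a linear scale, which the authors scaled to a common level on every array. Probe set 1434708_at gave signals of 457, 639 and 839 on controls 1, 2 and 3 and of 344, 358 and 467 on knockouts 1, 2 and 3. The groups overlapped by 1 array, since knockout 3 lay just above control 1, and the knockout was lower in each of the 3 same-numbered pairs. The log2 difference was -0.70 (SE 0.32, limma's moderated standard error), with a 95% interval from -1.42 to 0.03 (limma, adjusted p 0.99995; two-sided exact permutation p 0.2, where the smallest possible is 0.1). With the replicate number as a block the interval ran from -1.29 to -0.10 and the unadjusted p was 0.0270 in place of 0.0570, in a fit where 4.21% of tested probe sets had an unadjusted p under 0.05, and the adjusted p was 0.999. The dimmer probe set, 1421071_at, read 100, 122 and 28.1 in controls and 81.1, 35.4 and 42.1 in knockouts, mostly below the array medians of 102 to 123, and was too dim to test. Its exact permutation p was 0.6. Where either probe set lies relative to the deleted part of Vhl was not analysed here. In whole islets, fewer cells of a type cannot be told apart from less RNA per cell.

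No probe set of these genes passed at an adjusted p under 0.05. The call rule was Benjamini-Hochberg adjustment of limma p-values over the 23071 probe sets that exceeded the median of their array on at least 3 of 6 arrays, and 15 of the 18 probe sets described here met that filter. Among all tested probe sets 0.0173% passed, 4 in all. Both Egln3 probe sets met the filter through the knockout arrays alone, so counts are given over all 18 without a filter. In the limma fit without a filter, 3 of the 18, both Egln3 probe sets and Egln1 1423785_at, had an unadjusted p under 0.05, against 3.12% of the 45037 probe sets. By signal, 4 of the 18 had every knockout signal above every control signal, against 4.05% of those 45037, and 0 had every knockout signal below, against 3.58%. The 4 were both Egln3 probe sets, the brighter Egln1 probe set and that of Egln2, so all came from the prolyl hydroxylases.

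**Figure D1:**
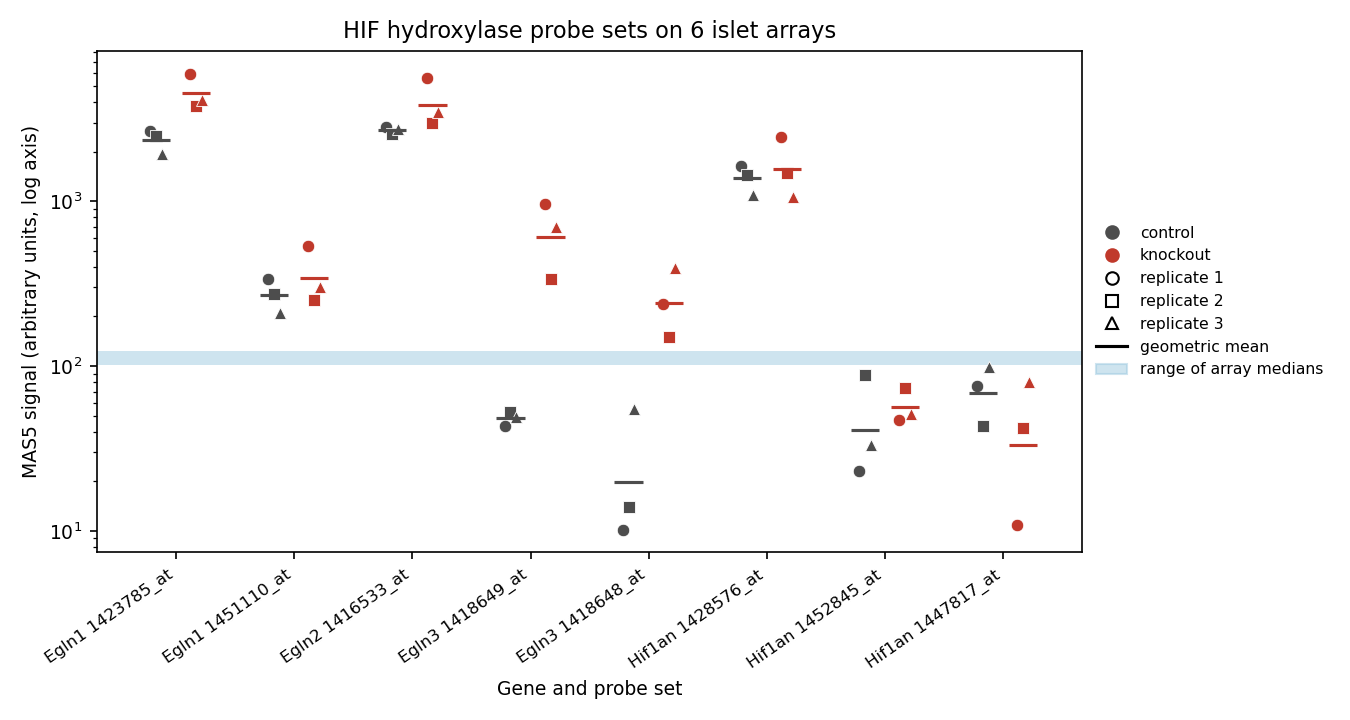
MAS5 signal (vertical, log axis, arbitrary units) of the 8 probe sets of the HIF hydroxylase genes on the 6 arrays, controls in grey and knockouts in red, with the geometric mean of each group as a bar and the range of the array medians as a band. Both Egln3 probe sets lie below the band in all controls and above it in all knockouts, and the brighter Egln1 probe set and that of Egln2 are separated between genotypes.

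Egln3, the prolyl hydroxylase with the widest gap between the genotypes among these genes, went from signals below the array medians to signals well above them. Probe set 1418649_at read 43.2, 52.9 and 49.0 in controls and 965, 336 and 694 in knockouts. The 3 controls were close together, and the lowest knockout, replicate 2, was still far above them. The knockout level was 12.6-fold that of control, and the log2 difference of 3.66 (SE 0.45) had a 95% interval from 2.64 to 4.67. Its adjusted p was 0.0762, and it ranked 5 by p among the 23071 probe sets, a pool it entered through the knockout arrays alone. Without a filter, over 45037 probe sets, its limma p was 9.84e-06 and its adjusted p 0.0718. The second probe set, 1418648_at, read 10.2, 13.9 and 54.9 in controls and 238, 151 and 395 in knockouts, again without overlap. Its log2 difference of 3.61 was less precise, at an SE of 0.83 (limma, adjusted p 0.957, and 0.694 without a filter), since control 3 stood above the other controls.

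Because the control signals of Egln3 are dim, the size of its fold depends on how dim values are treated, and its place by the threshold depends on single arrays. With 32 signal units added before log2 the difference of 1418649_at was 3.00 and that of 1418648_at was 2.32. Leaving out knockout 2, the lowest of its group, gave 4.09 for 1418649_at, which then passed (limma, adjusted p 0.0356), as it did with array weights at 3.60 (adjusted p 0.0314). Over the 16 alternatives that gave it a value its adjusted p lay between 0.0314 and 0.756, the highest without knockout 1, where the difference was 3.32. With the filter on all 6 arrays neither Egln3 probe set was tested. The difference was 4.48, 2.67 and 3.82 in the pairs numbered 1, 2 and 3.

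Egln1, the prolyl hydroxylase regarded as the main one acting on HIF in most tissues, was higher in the knockout islets by a smaller margin that did not pass. Its brighter probe set, 1423785_at, read 2660, 2485 and 1942 in controls and 5947, 3786 and 4097 in knockouts. All 3 knockouts lay above all 3 controls, with knockout 1 the highest. The level was 1.93-fold that of control, a log2 difference of 0.95 (SE 0.29) whose 95% interval ran from 0.30 to 1.60 (limma, p 0.00887 unadjusted, adjusted p 0.99995). The other probe set, 1451110_at, did not separate the groups, at 338, 275 and 211 in controls and 533, 250 and 304 in knockouts. Its log2 difference was 0.35 with an interval from -0.49 to 1.18, and it was 0.03 without knockout 1. The probe sets of Egln1 thus had differences of the same sign and unequal size, and their mean gave 0.65.

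Egln2, the prolyl hydroxylase not usually counted among HIF targets, had a single probe set, 1416533_at, with signals of 2822, 2543 and 2747 in controls and 5555, 2975 and 3471 in knockouts. The groups did not overlap, although knockout 2 was only a little above the highest control. The level was 1.43-fold that of control, and the log2 difference of 0.51 (SE 0.30) had an interval from -0.16 to 1.19 (limma, adjusted p 0.99995). Knockout 1 carried much of it, and without that array the difference was 0.25.

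Hif1an, the asparaginyl hydroxylase, overlapped between genotypes. Probe set 1428576_at read 1645, 1441 and 1095 in controls and 2448, 1487 and 1063 in knockouts, so that the highest and the lowest of the 6 signals were both in the knockout group. The log2 difference was 0.19 (SE 0.36), its interval from -0.61 to 1.00 (limma, adjusted p 0.99995), and it was -0.13 without knockout 1. The other probe sets, 1452845_at and 1447817_at, lay below the array medians on all 6 arrays and were not tested. Their signals ran from 23.1 to 88.2 and from 10.9 to 98.8, and their log2 differences, 0.46 and -1.05, had opposite signs.

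These differences were also set against each other within arrays, after their values had been seen, as the log ratio of the brightest probe set of 1 hydroxylase gene to that of another. Of the 6 pairs of the 4 genes, 5 had ratios that did not overlap between genotypes, each with the smallest two-sided exact permutation p the design allows, 0.1 (adjusted p 0.12 over the 6 pairs). The 6 ratios reuse the same 4 probe sets, so they are not separate observations. The share of such ratios among pairs of other probe sets was not computed. The difference of Egln3 1418649_at was larger than that of Egln1 by 2.71 on the log2 scale, than that of Egln2 by 3.14 and than that of Hif1an by 3.47. These gaps rest on the dim control signals of Egln3, and with 32 units added before log2 they were 2.06, 2.49 and 2.81. The Egln1 difference was larger than that of Egln2 by 0.43 and than that of Hif1an by 0.76. The pair of Egln2 and Hif1an, 0.32 apart, overlapped (exact permutation p 0.3, adjusted p 0.3). With 3 arrays against 3 none of these could pass 0.05, so they describe the 6 arrays and establish no order.

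**Figure D2:**
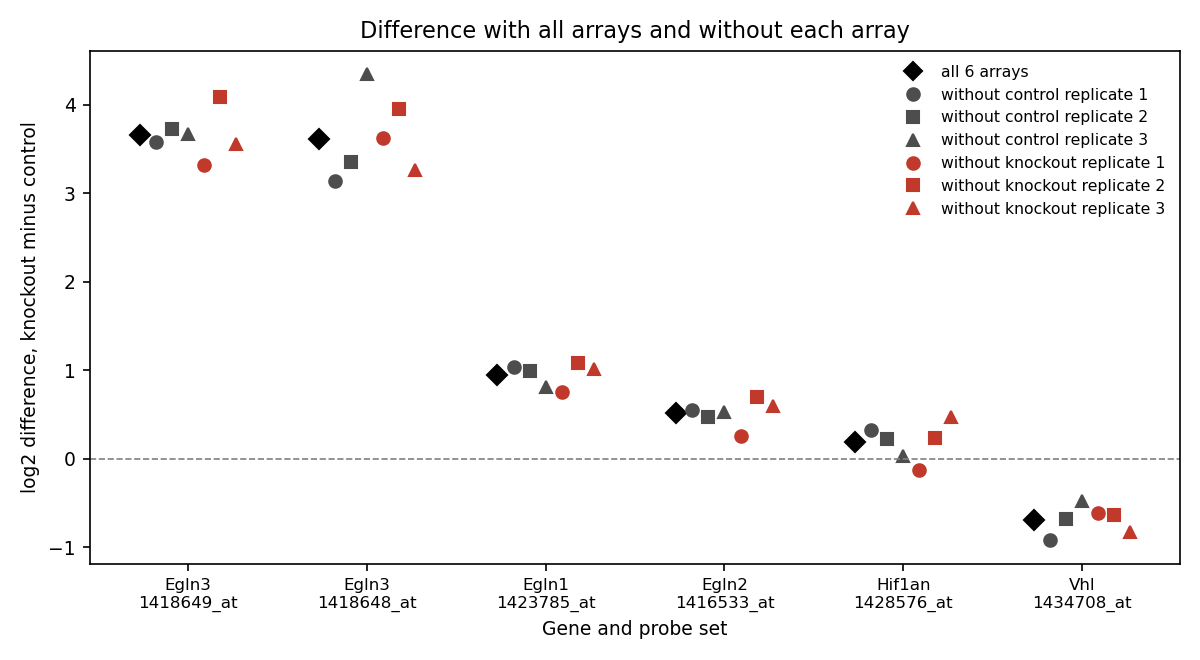
Log2 difference, knockout minus control (vertical), of 6 probe sets with all arrays (black diamond) and with each control (grey) or knockout (red) array left out. Egln3 stays between 3.13 and 4.35 for both probe sets, Egln1 between 0.75 and 1.08 and Egln2 between 0.25 and 0.70, while Hif1an crosses 0 and Vhl stays below 0.

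Cul2, the scaffold of the Vhl ligase, differed little. Probe set 1451231_a_at read 847, 900 and 989 in controls and 864, 751 and 837 in knockouts, with overlap at control 1 and knockout 1. The log2 difference was -0.16 (SE 0.26), its interval from -0.75 to 0.43 (limma, adjusted p 0.99995). The dimmer probe set, 1419765_at, ranged from 91.3 to 264 in controls, which enclosed all 3 knockouts at 138 to 195, and its difference of 0.21 had an interval from -0.86 to 1.27.

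Rbx1, the RING protein that recruits the ubiquitin-conjugating enzyme, had 1 probe set that names it alone, 1440061_at. It read 160, 147 and 138 in controls and 33.3, 192 and 55.9 in knockouts. Knockouts 1 and 3 were below all controls and knockout 2 was above them. The log2 difference was -1.06 (SE 0.67), its interval from -2.58 to 0.46 (limma, adjusted p 0.99995), and leaving out knockout 2 gave -1.78 where leaving out knockout 1 gave -0.52. On knockouts 1 and 3, which carry the lower mean, the signals lay below the medians of those arrays (112 and 102), and the 5 probe sets shared with another symbol were left aside, so the level of Rbx1 rests on this probe set alone.

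Siah1a was measured by 3 probe sets that went different ways. Probe set 1449733_s_at had practically equal means, with 786, 847 and 1184 in controls and 795, 950 and 1046 in knockouts and a log2 difference of 0.002 (interval from -0.65 to 0.66). Probe set 1423390_at read 689, 426 and 685 in controls and 968, 430 and 1769 in knockouts, a difference of 0.62 (SE 0.49) that was 0.14 without knockout 3. Probe set 1420106_at read 310, 238 and 635 in controls and 359, 224 and 360 in knockouts, a difference of -0.23 (SE 0.41) that turned to 0.17 without control 3. All 3 overlapped between genotypes, each with an adjusted p of 0.99995 in limma.

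Siah2, known as a hypoxia-linked ligase of the prolyl hydroxylases, also overlapped. Its brighter probe set, 1448170_at, read 1094, 1056 and 879 in controls and 811, 1008 and 1187 in knockouts. Both the lowest and the highest signal came from knockouts, and the log2 difference was -0.02 (interval from -0.66 to 0.61). Probe set 1448171_at read 211, 284 and 236 in controls and 189, 112 and 237 in knockouts, a difference of -0.50 (SE 0.38) that was -0.19 without knockout 2. Both had an adjusted p of 0.99995 in limma.

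**Figure D3:**
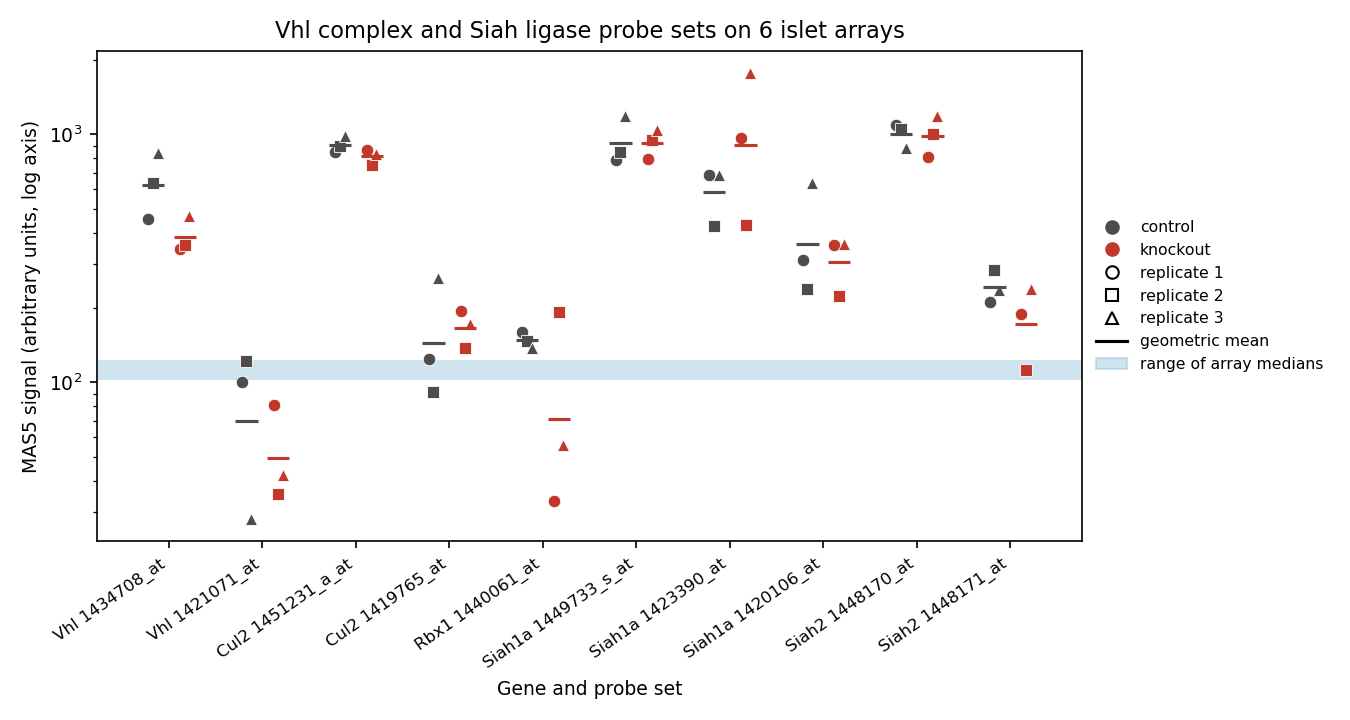
MAS5 signal (vertical, log axis, arbitrary units) of the 10 probe sets of Vhl, Cul2, Rbx1, Siah1a and Siah2 on the 6 arrays, controls in grey and knockouts in red, with group geometric means as bars and the range of the array medians as a band. The groups overlap for every probe set, for Vhl 1434708_at by knockout 3 (467) against control 1 (457).

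**Figure D4:**
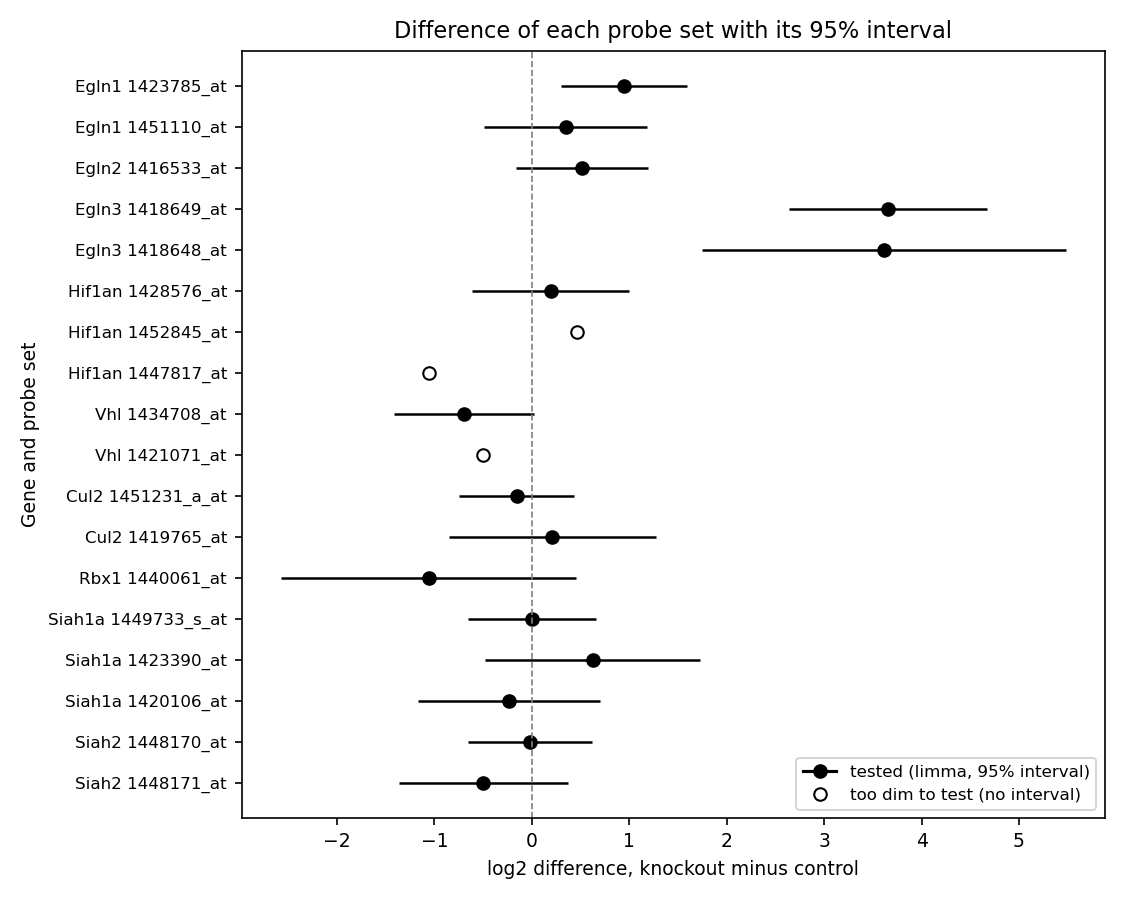
Log2 difference, knockout minus control (horizontal), of all 18 probe sets, with limma's 95% interval where tested and an open circle where the probe set was too dim. Intervals lie above 0 for both Egln3 probe sets and for Egln1 1423785_at, and they include 0 for the other 12 tested.

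The other genes of the pathway, taken from fixed lists, had no probe set that passed. Over the 4 lists, 96 probe sets of 44 genes were tested, 39 with a difference above 0 and 57 below, and 0 had an unadjusted p under 0.05. The groups did not overlap for 3 of the 96, all lower in the knockout, where 6.35% of all tested probe sets did not overlap in either direction. The elongins Elob and Eloc, which join Vhl to Cul2, had 6 probe sets, all above 0, with a median log2 difference of 0.22 against -0.02 over all probe sets tested. Those of lowest p were Elob 1436949_a_at at 0.43 (SE 0.39) and Eloc 1436226_at at 0.28 (SE 0.35). Among 15 probe sets of other cullins and of Rnf7, the median was -0.09. Cul5 1428287_at at -0.45 (SE 0.30) and Cul3 1434717_at at -0.35 (SE 0.26) had knockout signals below all control signals. The other probe sets overlapped, at -0.54 and -0.12 for Cul5 and from -0.40 to -0.04 for Cul3, whose brightest, 1422794_at, was at -0.04.

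Genes of cullin neddylation, the modification that activates these ligases, and of the COP9 signalosome, which removes it, had 32 tested probe sets with a median of -0.11. The lowest p were those of the signalosome subunits Cops7a (1429078_a_at, -0.48, SE 0.32, with 0.03 in its other probe set) and Cops8 (1415934_at, -0.27, SE 0.25), the latter without overlap. Modifiers of Vhl or of the hydroxylases had 43 tested probe sets with a median of -0.04, of which the lowest p were those of the SUMO protease Senp1 (1451319_at, -0.56, SE 0.38, with 0.48 and 0.07 in its other probe sets) and the ubiquitin-conjugating enzyme Ube2s (1416726_s_at, 1.13, SE 0.77). Of the HIF subunits, on which this machinery acts, 8 of 20 probe sets were tested. Of these 0 passed, with Epas1 1435436_at at 0.69 (SE 0.29) and Hif1a 1416035_at at -0.56 (SE 0.37). The Epas1 signals did not overlap, with all knockouts above all controls, as for 3.35% of all tested probe sets. Its unadjusted p in limma was 0.0425, where 2.18% of all tested probe sets had one under 0.05. The brightest Hif1a probe set, 1427418_a_at, was at -0.44 (SE 0.35). The dimmest one tested, 1448183_a_at, was at 0.48 (SE 1.02), with a signal of 12.9 on control 3. All of these had an adjusted p of 0.99995 in limma.

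**Figure D5:**
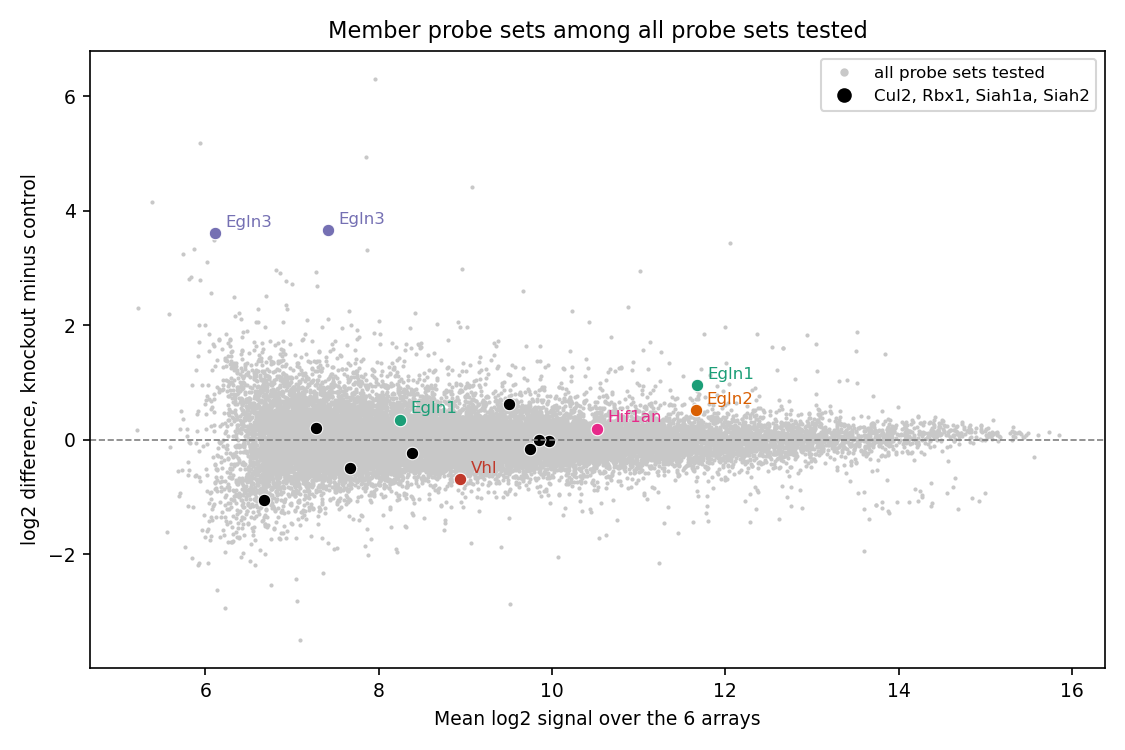
Log2 difference, knockout minus control (vertical), against mean log2 signal over the 6 arrays (horizontal) for all 23071 tested probe sets in grey, with the 15 tested probe sets of the genes described here on top. The Egln3 probe sets stand near the upper edge at 3.66 and 3.61, the bright Egln1 and Egln2 probe sets lie above 0, and the others lie within the bulk.

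The genes whose profile over the 6 arrays was most like that of Egln3 1418649_at were found by the root mean square difference of log2 signals centred on their own mean, over 1 probe set for each of 11701 genes. They were Prelid2 at 0.49, Pdxp at 0.56, Adm at 0.69, Ldha at 0.70 and Pfkp at 0.83 log2 units, where the median over all genes was 1.92. Their own log2 differences between genotypes were 2.98, 2.94, 2.92, 2.95 and 2.31. Only probe sets that met the filter were compared, and Pdxp and Adm, like Egln3, met it through the knockout arrays alone. For Vhl 1434708_at the nearest were Msx1 at 0.08, Ppl at 0.13, Slc33a1 and Nup93 at 0.14 and Klhl32 at 0.15, against a median of 0.60. Their differences between genotypes lay between -0.68 and -0.42. With 6 arrays in 2 genotypes such likeness mostly follows the genotype difference and the shared arrays, and it is a description of these 6 arrays.

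Markers of islet cells were present and markers of other cells differed between arrays. The summed signal of 12 beta cell probe sets ran from 184607 to 230724 in controls and from 148106 to 262878 in knockouts, and no signal on any array was at 0. Endothelial markers (15 probe sets, 14 above 0) summed to 11600 to 12331 in controls and 15522 to 19554 in knockouts, and fibroblast and pericyte markers (15 of 15 above 0) to 10021 to 12914 and 13703 to 36011, so for both lists all knockouts exceeded all controls, as for Egln2, both Egln3 probe sets and Egln1 1423785_at. Acinar markers (12 probe sets) ran from 115829 to 467565 in controls and from 10000.2, on knockout 3, to 590655 in knockouts. Without knockout 3 the differences were 3.56 for Egln3 1418649_at, 1.02 for Egln1 1423785_at, 0.59 for Egln2 and -0.83 for Vhl 1434708_at. The summed ranges of duct, leukocyte, other endocrine and neural markers overlapped between genotypes, although most of their probe sets had differences above 0. The counts above 0 were 9 of 12 for Schwann and neural markers (median log2 difference 0.85) and 7 of 7 for other endocrine markers. They were 6 of 6 for leukocyte markers and 5 of 7 for duct markers. Beta cell markers had 6 of 12 above 0 and acinar markers 0 of 12, where 48% of all tested probe sets were above 0. An unadjusted limma p under 0.05 was found for 3 of 12 Schwann and neural, 3 of 15 endothelial and 3 of 15 fibroblast and pericyte probe sets. The duct list had 1 and the other marker lists 0, against 2.18% of all tested probe sets. All knockouts exceeded all controls for 7 endothelial, 2 fibroblast and pericyte and 2 duct probe sets (Krt19 and Sox9), against 3.35% of all tested. Sox9, like Egln3, met the filter through the knockout arrays alone, so its separation is tied to the filter. The ratio of the 3' to the 5' control probe set of Gapdh was 11.9 on knockout 1 and 4.64 to 6.12 on the other arrays. That of actin ran from 3.34 to 15.1, the highest on control 3 and the next, 11.3, on knockout 1. On knockout 1 the brightest probe sets of Egln1, Egln2, Egln3 and Hif1an all had their highest signal. The part of other cells and of RNA quality in these differences was not tested.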

How the data were processed

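The authors deposited 1 linear signal intensity for each probe set and array. The submitters' processing notes name GCOS 1.4 and MAS5. All 6 arrays had a 2% trimmed mean of 500.003, the mark of a global scaling by the authors. Per the labels, RNA was amplified through a two-cycle cDNA protocol. Array medians ran from 102.1 to 123.0 signal units. Precision is limited by having 3 arrays for each genotype.

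Of 45101 probe sets 64 controls were left out. Of the rest the annotation gives 34945 exactly 1 symbol, 932 several and 9160 none, and all 9 symbols matched RefSeq (GRCm38.p6) by Entrez identifier. Log2 signals were fitted in R 4.3.3 with limma 3.58.1 (lmFit, eBayes with an intensity trend), each probe set on its own, over the 23071 above their array's median on at least 3 of 6 arrays, with Benjamini-Hochberg adjustment and a threshold of 0.05. The fit was checked on simulated data with known changes and independent errors. That check held no pairing or array effects, so it does not measure the power of the fit in these data. Errors are moderated standard errors, and n = 3 for each group.

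The genes and lists were chosen with earlier results of these data known, and the within-array ratios of hydroxylase genes after their values were seen. All 18 probe sets are described. From the other pathway lists the probe sets that passed are named, or else the 2 of lowest p, and the 5 nearest profiles to Egln3 and to Vhl.

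Both genotypes carry the numbers 1 to 3, with matching age and recorded sex. Deviations from group means correlated at 0.11, 0.40 and 0.37 in the same-numbered pairs, each over 0.1, so the numbers were taken to pair the samples. Control 1 with knockout 2 reached 0.14, above the 0.11 of control 1 with knockout 1. The main fit used genotype alone, so its standard errors include differences between replicate numbers and hence between ages. The exact permutation tests also ignored the pairing. It entered limma as the replicate block, an alternative. Alternatives were quantile normalization, 32 units added before log2, 3 other filters, 1 probe set or the mean for each gene, the block, no trend, array weights, an acinar covariate and leaving out each array. The 32 units added to the within-array ratios were chosen after seeing the data.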

Additional observations from a re-analysis of the deposited data

How the results depend on the processing

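The count of probe sets passing over the whole table was 4, and it was 2 with the filter on all 6 arrays, 2 with 1 probe set for each gene and 2 without an intensity trend. Leaving out each array gave 0 to 6, with 0 without control 1, knockout 1 or knockout 3, 1 without control 3 and 6 without knockout 2. The count among the genes described here was 0, and 1 with array weights and 0 to 1 when each array was left out, the 1 in both cases being Egln3 1418649_at. The replicate block kept the count at 0 and that over the table at 4, and changed no call at the adjusted threshold. It moved the count at an unadjusted limma p under 0.05 from 3 to 4 of 15 by adding Vhl 1434708_at. Over all 23071 tested probe sets that share rose from 2.18% to 4.21%. Both Egln3 probe sets, counted among the 15, met the filter through the knockout arrays alone. With the block the adjusted limma p was 0.0811 for Egln3 1418649_at, 0.781 for Egln1 1423785_at and 0.999 for Egln2. Signs turned for Cul2 1451231_a_at with the mean of its probe sets (0.026) and for Siah1a 1449733_s_at with the acinar covariate (-0.064). Leaving out each array, the log2 differences ran from -0.13 to 0.47 for Hif1an 1428576_at, from -0.12 to 0.65 for Cul2 1419765_at, from -0.11 to 0.18 for Siah1a 1449733_s_at, from -0.53 to 0.17 for Siah1a 1420106_at and from -0.15 to 0.12 for Siah2 1448170_at. Neither Egln3 probe set was tested with the filter on all 6 arrays. The cause of these changes was not tested. Of the alternative values for single probe sets, 226 kept their sign and their side of the threshold, 12 turned sign and 2, the calls of Egln3 above, went past it. Signals near or below the array medians limit Egln3 in controls, Rbx1 and the dimmer probe sets.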
